A study of Mus musculus with 43 samples.

Results

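The early gonad transcription factors are 9 genes, Emx2, Lhx9, Lhx2, Wt1, Gata4, Gata6, Zfpm2, Cbx2 and Tcf21, followed here in 43 whole mouse gonads across 15 groups of stage, gonad and genotype. The members were taken by name, with every probe set that the annotation of the Affymetrix MOE430 v.2 array gives to them alone. The 9 genes, of 18184 represented, had 18 probe sets of the 45007 analysed.

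These factors act in the genital ridge, the bipotential primordium from which both ovary and testis arise. In mice, loss of Emx2, Lhx9 or Wt1 stops the ridge from forming a gonad, GATA4 is needed for the first thickening of the coelomic epithelium, and CBX2, a Polycomb protein, is needed for testis determination. After the sexes diverge, several of them stay on in supporting cells, surface epithelium or stroma, and the question addressed is how far each persisted by stage, by gonad and in mutant ovaries.

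Each array measured the gonads of 1 mouse, freed of adjoining tissue, and groups held 3 arrays, except 2 in each E15 group. Testes were sampled at E13 and on the day of birth (P0), with no genotype in the labels, and the study's methods state that those of P0 were taken from Wnt4-null males, in which testis differentiation is partly impaired. Control ovaries were sampled at E13 (Foxl2+/- by the labels, wild-type littermates by the methods), E15 (Wnt4+/-), E16 and P0 (both with no mutation given in the labels). Foxl2-null ovaries were sampled at E13, E16 and P0, and Foxl2+/- ovaries at E16. Foxl2 encodes a forkhead factor of the ovarian supporting cells, and Wnt4 a signalling protein of the fetal ovary. Wnt4-null ovaries were sampled at E15 and P0, and the P0 animals also carried Foxl2+/-. Kit Wv/Wv ovaries, homozygous for a hypomorphic allele of a receptor on which germ cell survival depends, were sampled at P0 and were likewise Foxl2+/-. Wnt4-/-Foxl2-/- and Kit Wv/Wv Foxl2-/- ovaries at P0 completed the set. By the methods, the E15 animals came from another strain mix than the rest.

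Signals are intensities divided by 15970000, the mean that all arrays share, so a signal of 1 is an average probe set. Each probe set has its own affinity, and levels are compared only within a gene. Genes are read from their brightest probe set. Differences are log2 fold changes of (signal + 0.01) from a single limma fit over all arrays, given with the standard error (SE) and a Benjamini-Hochberg adjusted p over all probe sets, and a gene is called at an adjusted p under 0.05.

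Foxl2 signals were 0.606 to 2.77 in Foxl2-null ovaries of E13 to P0 against 5.32 to 16.8 in their controls. They were 0.683 to 0.827 in Wnt4-/-Foxl2-/- against 5.13 to 5.9 in Wnt4-null ovaries, and higher in Kit Wv/Wv Foxl2-/- ovaries, at 4.01, 3.56 and 7.64 against 19.5 to 32.6 in Kit Wv/Wv. Wnt4 signals were 0.2 to 0.306 in Wnt4-null ovaries of P0 against 0.581 to 0.745 in wild-type ovaries. The summed signal of 13 Sertoli cell markers was 36.8 to 61.3 in testes against 4.65 to 10.8 in ovaries other than the Wnt4-null groups of P0, and no probe set was listed at 0. Some arrays stood apart by markers of other cells: the second Foxl2-null ovary of E13 (striated muscle markers 24.6 against 4.65 and 6.43 in its group) and the third Kit Wv/Wv ovary (oocyte markers 23.0 against 1.68 and 2.71). In such whole-organ RNA, fewer cells of a type and less RNA per cell cannot be told apart.

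The RefSeq promoter table (GRCm38.p6) held entries for 4 of the 9 genes. Those of Emx2, Lhx9 and Tcf21, the genes that carry most of the mutant results, are shown as the 250 bases before the annotated start, 5′ to 3′ on the gene's strand. Capitals mark matches, on either strand, to any of 9 motif spellings. GATA factors were searched as AGATAA and as the variant spelling TGATAA. LIM homeodomain factors were searched as TAATTA, and TCF/LEF factors of the WNT pathway as CTTTGA. NR5A1 was searched as AAGGTCA, forkhead factors as GTAAACA and the E-box as CATCTG. EGR and WT1 sites were searched as GCGGGGGCG and, in a looser form, as GCGTGGGNG.
Emx2, chr19:59458440-59458689, plus strand: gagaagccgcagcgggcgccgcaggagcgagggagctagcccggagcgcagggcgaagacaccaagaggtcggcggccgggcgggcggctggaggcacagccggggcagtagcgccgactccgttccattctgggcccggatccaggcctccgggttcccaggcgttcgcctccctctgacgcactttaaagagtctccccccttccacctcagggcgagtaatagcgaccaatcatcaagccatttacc
Lhx9, chr1:138842445-138842694, minus strand: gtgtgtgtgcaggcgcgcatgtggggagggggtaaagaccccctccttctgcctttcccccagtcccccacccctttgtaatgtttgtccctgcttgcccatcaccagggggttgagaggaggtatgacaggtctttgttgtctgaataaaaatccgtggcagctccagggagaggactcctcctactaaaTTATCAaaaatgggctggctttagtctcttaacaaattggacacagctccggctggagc
Tcf21, chr10:22820144-22820393, minus strand: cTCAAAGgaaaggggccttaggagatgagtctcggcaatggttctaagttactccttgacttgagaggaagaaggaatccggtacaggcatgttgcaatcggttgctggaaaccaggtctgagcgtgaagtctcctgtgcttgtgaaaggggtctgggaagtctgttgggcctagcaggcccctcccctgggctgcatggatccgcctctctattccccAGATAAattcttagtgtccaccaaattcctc
The Lhx9 window held TGATAA, read on the other strand, from 59 bases before the start. The Tcf21 window held AGATAA from 31 bases before the start and CTTTGA, on the other strand, from 249 bases before it. Of 32851 promoter windows of this length, 7.94% held TGATAA, 9.99% AGATAA and 13.8% CTTTGA. None of the 9 spellings occurred in the Emx2 window, 67.2% of whose bases were G or C. The start used for Lhx9 lies inside the gene, whose annotation spans chr1:138825186-138848839.

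Testis and ovary differed in most of these factors already at E13, and for Emx2 the difference was larger at birth. At E13, 6 of the 9 were called, where 8.14% of all genes were: Emx2, Lhx9, Lhx2, Wt1 and Gata6 were lower in testis and Tcf21 was higher. The median member difference was -0.745 beside -0.0386 over all genes. At P0, where the testes came from Wnt4-null mice, 5 of the 9 were called (28.9% of all genes): Emx2, Wt1 and Gata6 were lower in testis, and Lhx9 and Tcf21 higher. The part of that genotype in the P0 differences was not tested.

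**Figure D1:**
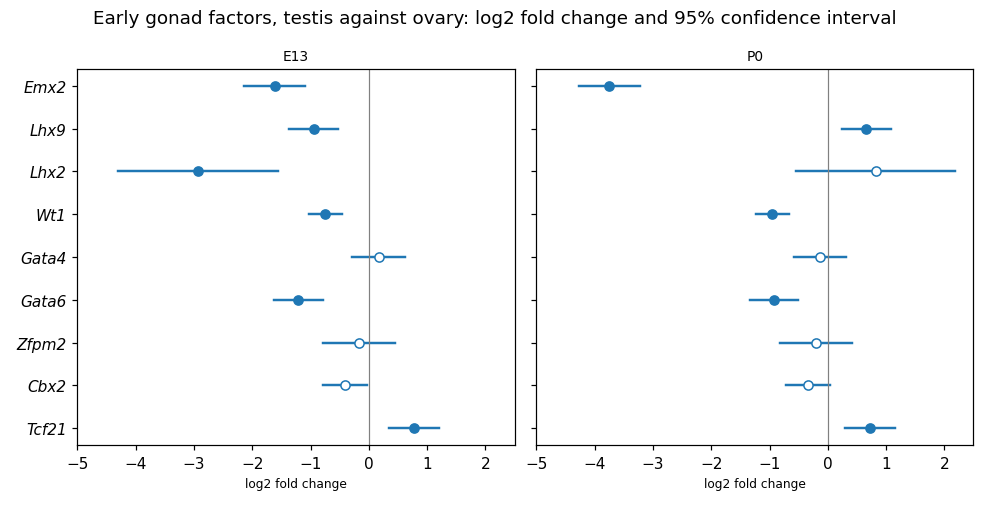
Log2 fold change of each early gonad factor in testis against ovary at E13 (left) and P0 (right), with 95% confidence intervals from the limma fit over 43 arrays. Filled points passed an adjusted p of 0.05. The Emx2 point moves from -1.62 to -3.75 and the Lhx9 point from -0.95 to 0.66.

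Emx2 encodes a homeodomain factor of the urogenital epithelium. Its signals were 7.76, 7.45 and 8.02 in E13 ovaries and 2.71, 2.47 and 2.39 in E13 testes. At P0 they were 8.2, 6.02 and 5.76 in ovaries and 0.267, 1.15 and 0.358 in testes. Every testis array lay below every ovary array of its age, by -1.62 ± 0.26 (SE) at E13 (adjusted p = 3.35e-05) and -3.75 ± 0.26 at P0 (3.14e-13), a 13.4-fold difference. Emx2 was lower by -2.37 in P0 than in E13 testes (2.39e-08), whereas control ovaries of E13, E16 (7.89, 7.76 and 7.76) and P0 were not called apart (P0 against E13 -0.23, 95% confidence interval -0.76 to 0.29). The change in testis minus that in ovary was -2.13 ± 0.37 (adjusted p = 0.000194). It became -2.75 without the second P0 testis, the array with the highest Emx2 signal of the 3. Since the P0 testes alone were Wnt4-null, age and Wnt4 genotype cannot be told apart in the testis, here and for the other factors, and Wnt4-null ovaries had lower Emx2 as well (-1.18 at E15 and -1.16 at P0).

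Lhx9 encodes a LIM homeodomain factor of the coelomic epithelium and changed in the ovary instead. In ovaries its signals were 4.43, 4.44 and 3.83 at E13, 3.41, 3.03 and 2.82 at E16 and 1.68, 1.45 and 0.902 at P0. In testes they were 2.24, 2.08 and 2.24 at E13 and 2.41, 1.92 and 1.89 at P0. The ovarian values of the 3 ages did not overlap, while the testis values of both ages did. Ovarian Lhx9 fell by 1.69 from E13 to P0 (SE 0.21, adjusted p = 2.43e-07), and all 4 Lhx9 probe sets passed the test in this comparison. Most of the fall came after E16 (-1.24, adjusted p = 4.35e-05), and the step from E13 to E16 was not called (-0.45, 0.186). Testis was thus below ovary at E13 (-0.95 ± 0.21, 0.00253) and above it at P0 (0.66 ± 0.21, 0.0175), and the difference between these changes was 1.61 ± 0.30 (0.000437). The P0 difference was not called when arrays were centred on their medians (0.47, adjusted p = 0.152), or without the third P0 ovary (0.197) or the first P0 testis (0.0901).

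Lhx2, the close relative of Lhx9, was faint throughout, with no signal above 0.273. Its signals were 0.153, 0.233 and 0.273 in E13 ovaries, 0.0218, 0.00809 and 0.034 in E13 testes and 0.0509, 0.0372 and 0.00297 in E16 ovaries. The E13 control ovaries were above every other array but 1, a Foxl2-null ovary of E13 at 0.264. Lhx2 was called lower in E13 testis (-2.93 ± 0.67, adjusted p = 0.00393), in E16 ovaries (-2.75, 0.00833) and in P0 ovaries (-3.03, 0.00123) than in E13 ovaries. With a pseudocount of 0.1% in place of 1% of the common mean, the first and second calls were lost (adjusted p = 0.12 and 0.104). All the lower signals lie under the median of an array, 0.1796 to 0.295, and near the 0.01 added, so the sizes are set by the pseudocount (with 0.1% they were -3.47, -3.43 and -4.26) and are no measured fold. Without the third E16 ovary, the value nearest to 0, the second was also lost (0.108), as it was without the third E13 ovary (0.0655). Meiotic germ cell markers moved with it in E13 testis, where 6 of 9 were lower (summed signals 2.59 to 2.99 against 9.62 to 34.2 in E13 ovaries). Against E13 ovaries, 4 of the 9 were higher and 2 lower in E16 ovaries, and 2 higher and 4 lower in P0 ovaries. The part of these markers in the Lhx2 results was not tested.

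Wt1 encodes a zinc finger factor of the ridge, later of Sertoli and granulosa cells. Signals were 6.76, 6.21 and 6.51 in E13 ovaries against 4.01, 4.29 and 3.36 in E13 testes, and 6.15, 6.7 and 5.9 against 2.89, 3.86 and 3.01 at P0. No testis array reached an ovary array of its age. The differences were -0.74 ± 0.14 at E13 (adjusted p = 0.000263) and -0.95 ± 0.14 at P0 (1.93e-06). Neither gonad was called changed with age (ovary P0 against E13 -0.06, testis -0.26, adjusted p = 0.822 and 0.194).

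GATA4 and GATA6 are zinc finger factors of gonadal somatic cells, and Zfpm2 encodes FOG2, the cofactor that binds GATA4. Gata4 signals were 1.75 to 1.87 in E13 ovaries, 1.9 to 2.16 in E13 testes, 1.39 to 2.67 in P0 ovaries and 1.46 to 2.05 in P0 testes, and no comparison of sex or age called it. Zfpm2 was likewise not called, with 0.795 to 1.67 in E13 ovaries and 0.989 to 1.1 in E13 testes. Gata6 differed: its signals were 2.65, 1.78 and 1.84 in E13 ovaries against 0.964, 0.87 and 0.827 in E13 testes, and 3.8, 2.39 and 3.06 against 1.16, 2.02 and 1.73 at P0. All testis arrays lay below the ovary arrays of their age, by -1.21 ± 0.20 at E13 (adjusted p = 7.44e-05) and -0.92 ± 0.20 at P0 (0.00082), and Gata6 was higher by 0.84 in P0 than in E13 testes (0.0026). The second of the 3 Gata6 probe sets gave the same 3 calls. In ovaries the brightest probe set rose from E16 to P0 (0.67, 0.0132), but the third, with a mean signal of 0.184, fell by 1.94 (0.000465), so the direction of ovarian Gata6 after E16 depended on the probe set. The rise was also not called without the second or the third E16 ovary (0.0514 and 0.111) or the first P0 ovary (0.0863).

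Cbx2 encodes a chromobox subunit of Polycomb repressive complex 1 and declined in both gonads. Signals were 1.7, 2.3 and 2.39 in E13 ovaries, 1.02, 1.01 and 1.08 at E16 and 0.695, 1.13 and 0.964 at P0. In testes they were 1.42, 1.54 and 1.83 at E13 and 0.77, 0.651 and 0.733 at P0. All E13 arrays lay above all later arrays of the same gonad. Cbx2 fell by 1.02 ± 0.19 in ovary from E13 to E16 (adjusted p = 0.000469), by 1.20 from E13 to P0 (1.23e-05) and by 1.14 in testis (2.59e-05), and its other probe set passed all 3 tests in the same direction. The sexes were not called apart at either age (-0.41 and -0.34, adjusted p = 0.238 and 0.181).

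Tcf21, also called Pod1, encodes a basic helix-loop-helix factor known as a repressor of Nr5a1. Its signals were 2.18, 1.53 and 1.83 in E13 ovaries against 4.33, 2.74 and 2.62 in E13 testes, and 2.07, 1.13 and 1.93 against 2.82, 2.82 and 2.61 at P0. Testis arrays were above ovary arrays at both ages, by 0.78 ± 0.21 (adjusted p = 0.0179) and 0.73 ± 0.21 (0.00974). These calls rested on few arrays: the first gave an adjusted p of 0.189 without the first E13 testis and of 0.113 or 0.0581 without the second or the third E13 ovary, the second gave 0.146 without the second P0 ovary, and median centring lost both (0.078 and 0.1). On the other, fainter Tcf21 probe set, testes lay above ovaries at E13 (0.384 to 0.72 against 0.235 to 0.247). At P0 its signals overlapped (0.282 to 0.36 in testes against 0.231 to 0.41 in ovaries). Interstitial stroma markers moved with Tcf21, 3 of 10 being higher in testis at E13 (summed signal 56.4 to 64.7 against 29.1 to 59.8) and 7 of 10 at P0 (115 to 156 against 52.9 to 82.7), and their part in the result was not tested.

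**Figure D2:**
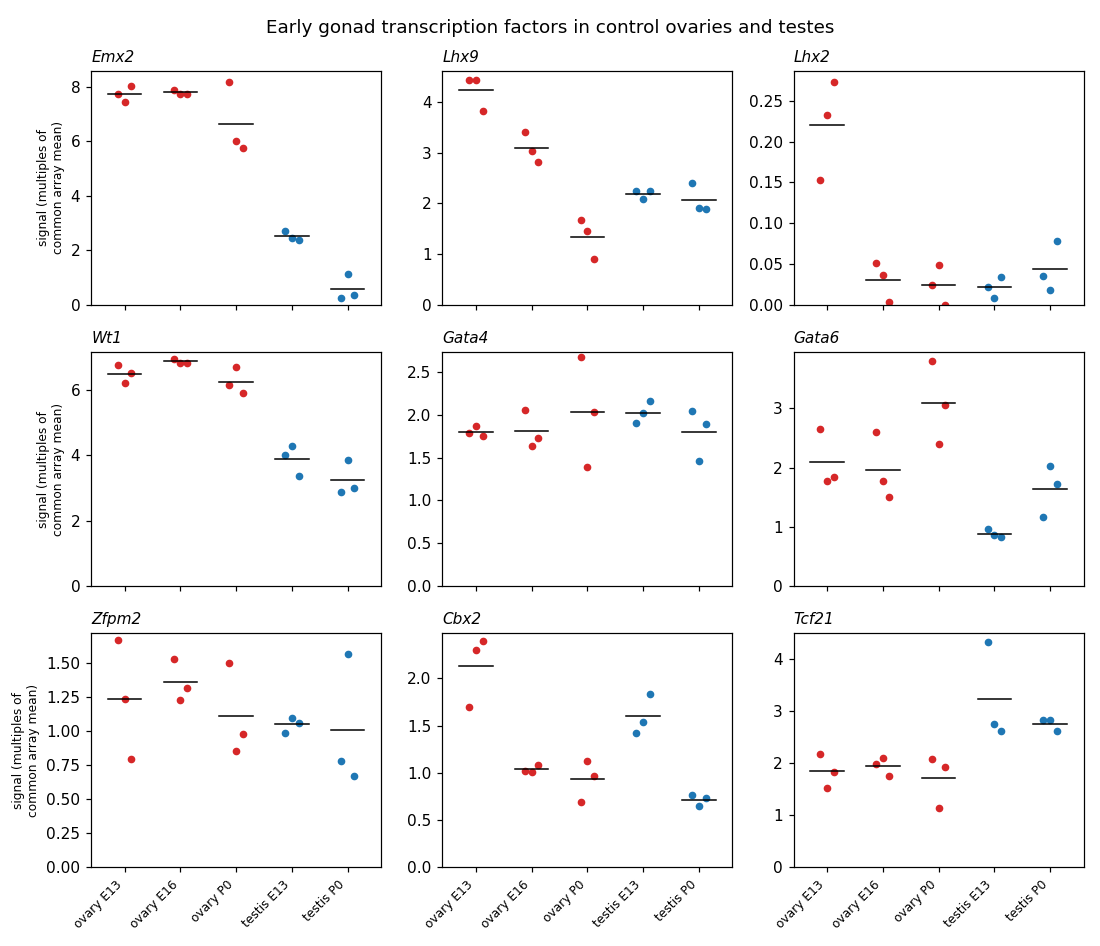
Signals of the 9 early gonad factors (multiples of the common array mean, linear axes from 0, a scale for each gene) in control ovaries of E13, E16 and P0 (red) and testes of E13 and P0 (blue). Points are arrays, 3 per group, and bars are means. Emx2 lies at 0.267 to 1.15 in P0 testes, Lhx9 falls to 0.902 to 1.68 in P0 ovaries, and Cbx2 declines in both gonads.

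Between the ages, control ovaries differed in Lhx9, Lhx2, Cbx2 and Gata6, with the E13 group labelled Foxl2+/- and the later ones without a mutation. From E13 to E16, 2 of the 9 were called, Lhx2 and Cbx2 (9.02% of all genes called). From E16 to P0, 2 were called, Gata6 up and Lhx9 down (30.9%). From E13 to P0, 3 were called, all lower: Lhx9, Lhx2 and Cbx2 (21.9%), with a member median of -0.144 beside -0.133 over all genes. In testis 3 were called from E13 to P0, Gata6 higher and Emx2 and Cbx2 lower (22.8%). The testis and ovary changes differed for 3 members, Emx2, Lhx9 and Lhx2 (8.83%). For Lhx2 this difference was 3.75 (adjusted p = 0.0111), and it was lost without the third P0 ovary (0.0578).

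Epithelial markers differed between the gonads as well. Of 9 markers of the ovarian surface epithelium and mesothelium, a site of Emx2, Lhx9 and Wt1 expression, 3 were lower in testis at E13 (summed signal 5.22 to 5.68 against 10.1 to 11.9) and 6 at P0 (3.7 to 9.2 against 15.2 to 18.9). Of 5 markers of the mesonephros, its ducts and the kidney, where Emx2, Lhx1 and Wt1 are also active, 3 were lower and 1, Lhx1, higher in E13 testis (0.271 to 1.03 against 0.475 to 1.97). Their part in the differences was not tested.

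No factor was called changed with loss of Foxl2, in comparisons that called at most 1.86% of all genes. In 9 comparisons of Foxl2 genotypes, alone or combined with the Wnt4 or Kit mutation, limma called 0 of 81 pairs of gene and comparison, and 6 pairs had an unadjusted p under 0.05. Several of these comparisons share arrays, so the pairs are not independent. By the labels the E13 controls were Foxl2+/- and those of E16 and P0 carried no mutation, so an average over the ages joins unlike contrasts. Averaged over E13, E16 and P0, 1.86% of all genes were called. At single ages the share was 1.4% (E13), 0.66% (E16) and 0.825% (P0), and it was 0.0055% between Foxl2+/- and wild-type ovaries of E16. Leaving out the E13 null array with high muscle markers called none either.

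Emx2 signals were 7.51, 6.64 and 9.33 in Foxl2-null ovaries at E13, 7.51, 7.64 and 6.45 at E16 and 7.26, 8.39 and 6.39 at P0. They overlapped those of the controls at E13 and P0. At E16 all null arrays lay below the wild-type ones (7.76 to 7.89), without a call (-0.12, adjusted p = 0.991). The average Emx2 difference from controls was 0.01 (95% confidence interval -0.293 to 0.314). Lhx9 signals in the nulls were 1.13, 1.14 and 1.03 at P0, against 1.68, 1.45 and 0.902 in wild-type ovaries. The Lhx9 average was -0.22 (interval -0.461 to 0.0281, adjusted p = 0.42), and it passed the threshold when the 4 probe sets were averaged (-0.37, 0.0403). Tcf21 had the lowest adjusted p of the 9 in the average, 0.149, with 0.35 ± 0.12 (interval 0.0986 to 0.594). Its signals were 2.91, 2.41 and 3.04 in E16 nulls, 2.31, 2.15 and 2.82 in E16 Foxl2+/- ovaries and 1.99, 2.09 and 1.75 in E16 wild-type ovaries. Both groups with a mutant allele lay above the wild-type arrays at E16, without a call (0.51 and 0.31, adjusted p = 0.614 and 0.921). On the fainter Tcf21 probe set the groups overlapped, at 0.272 to 0.535 in nulls, 0.143 to 0.408 in Foxl2+/- and 0.223 to 0.39 in wild-type ovaries. Erythroid markers were high in some arrays of the same groups, with summed signals of 6.94 to 26.4 in nulls and 1.64 to 26.5 in Foxl2+/- ovaries against 1.26 to 1.81 in wild-type ovaries, and 2 of 5 were called in nulls (Slc4a1 and Hemgn). Their part in the Tcf21 values was not tested.

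By contrast Nr0b1, the orphan receptor DAX1 and another early gonad gene, was higher in Foxl2-null ovaries by 1.14 ± 0.18 in the average of the 3 ages (adjusted p = 0.00023). At single ages Nr0b1 was called at P0 only, and at E13 its signals overlapped (0.218 to 0.592 in nulls against 0.215 to 0.436). Nr5a1, which encodes steroidogenic factor 1, did not pass in the average (0.11, 0.807). Of 13 other genes of genital ridge formation measured, 3 were higher in the average (Nr0b1, Gadd45g and Wnt4) and 0 lower.

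Loss of Wnt4 moved 3 of the factors at birth, in opposite directions. In Wnt4-null against wild-type ovaries of P0, Emx2 was lower and Lhx9 and Tcf21 higher, 3 of 9 where 16.9% of all genes were called. The member median was 0.25 beside -0.0266 over all genes. At E15, where 2 arrays stood against 2, Emx2 alone was called (2.1% of all genes), lower in the null. The P0 groups differ in 1 Foxl2 allele besides Wnt4, and all P0 comparisons with wild-type ovaries use the same 3 control arrays.

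Emx2 signals were 2.78, 2.64 and 3.43 in Wnt4-null ovaries of P0, against 8.2, 6.02 and 5.76 in wild-type ovaries. At E15 they were 3.29 and 3.76 against 8.14 and 7.83. The nulls lay below their controls without overlap at both ages, by -1.16 ± 0.26 at P0 (adjusted p = 0.00162) and -1.18 ± 0.32 at E15 (0.0437). The E15 call is marginal: it was lost without any 1 of the 4 arrays (0.112 to 0.334) and under quantile normalization (0.0741). All null arrays lay above the P0 testes, whose highest signal was 1.15.

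Lhx9 signals were 3.06, 3.42 and 3.63 in Wnt4-null ovaries of P0, against 1.68, 1.45 and 0.902 in wild-type ovaries. The null values lay within or above the range of normal E16 ovaries, 2.82 to 3.41, and below that of E13, 3.83 to 4.44. Lhx9 was higher by 1.36 ± 0.21 (adjusted p = 1.45e-05), a 2.57-fold difference, and all 4 probe sets were called. At E15 the signals were 3.12 and 2.55 in nulls and 3.56 and 2.57 in controls (-0.10, interval -0.618 to 0.419). Whether the effects at E15 and P0 differ was not tested, and age and strain mix cannot be told apart there.

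Tcf21 signals were 4.19, 4.58 and 5.1 in Wnt4-null ovaries of P0, against 2.07, 1.13 and 1.93 in wild-type and 2.82, 2.82 and 2.61 in testes. They lay above both. The difference from wild-type ovaries was 1.47 ± 0.21 (adjusted p = 5.43e-06), 2.78-fold. The other, fainter Tcf21 probe set was also higher, at 0.433 to 0.543 against 0.231 to 0.41 in wild-type ovaries, but was not called. At E15 it was 0.57, not called (0.347), with 2.52 and 1.63 against 1.5 and 1.24. Gata4 (2.97, 2.6 and 3.64 against 2.67, 1.39 and 2.03) did not pass at P0 (0.63 ± 0.22, adjusted p = 0.0533). Without the first wild-type ovary of P0, 6 of the 9 were called, with Gata4 (0.85, 0.012) and Zfpm2 (0.99, 0.0445) higher and Cbx2 lower (-0.60, 0.0395) besides the 3 above.

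Other cell types shifted in the same ovaries. Of 10 interstitial stroma markers 5 were higher at P0 (summed signal 101 to 113 against 52.9 to 82.7 in wild-type ovaries), 4 of 5 steroidogenic markers were higher (9.77 to 19.9 against 2.41 to 3.25), 9 of 10 oocyte markers were lower (4.3 to 11.3 against 27.8 to 67) and 2 of 9 surface epithelium markers were lower (9.15 to 11.9 against 15.2 to 18.9). Of 10 fetal ovary supporting cell markers 7, Foxl2 and Wnt4 among them, were lower (14.8 to 17.4 against 33.6 to 39.3), 4 of 13 Sertoli cell markers were higher (14.3 to 15.6 against 6.38 to 7.89) and 2 of 4 adrenal cortex markers were higher (2.83 to 6.36 against 0.122 to 0.25). The part of these shifts in the 3 calls was not tested.

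**Figure D3:**
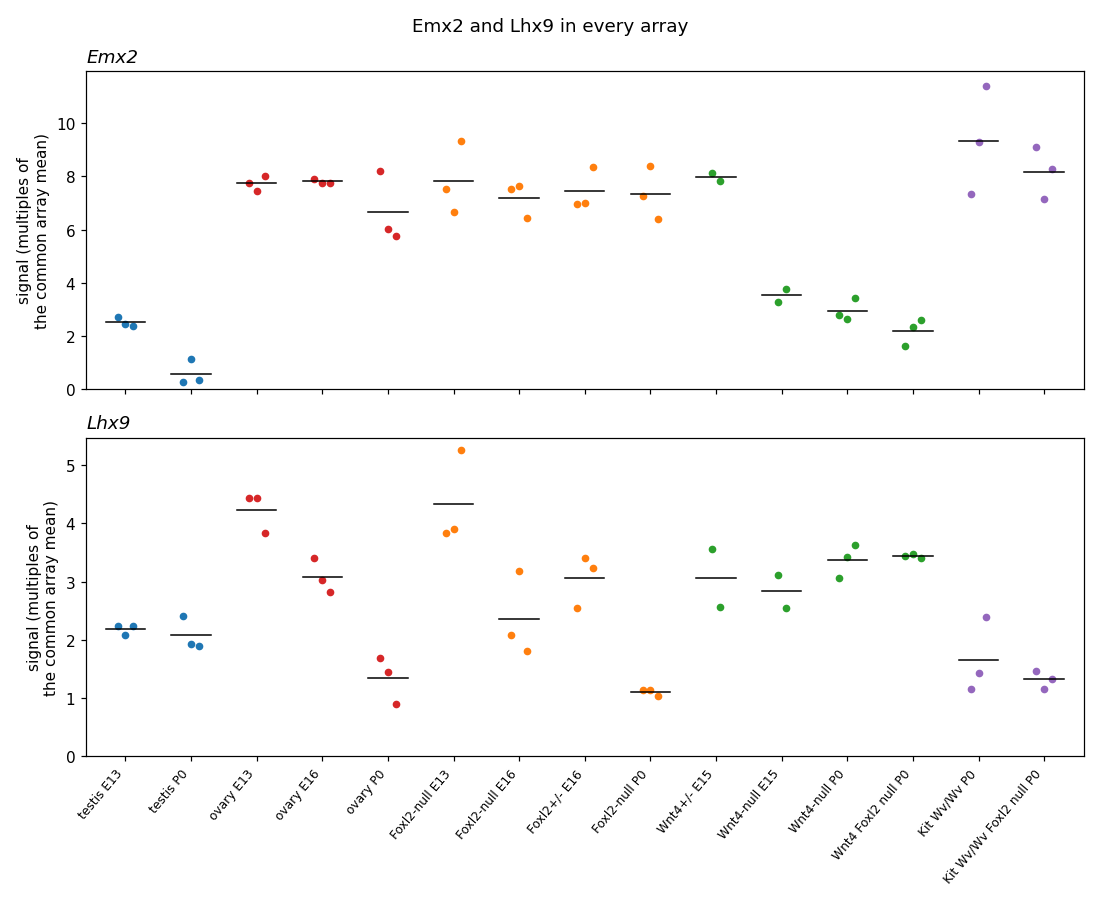
Signals of Emx2 (top) and Lhx9 (bottom) in all 43 arrays of 15 groups, in multiples of the common array mean on linear axes from 0. Points are arrays, bars are group means, and colours mark testes (blue), control ovaries (red), Foxl2 mutants (orange), the Wnt4 series with its E15 controls (green) and Kit mutants (purple). Emx2 is low in testes and in all Wnt4-null groups, and among the P0 groups the Lhx9 means are highest in the Wnt4-null groups.

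Kit Wv/Wv ovaries had little germ cell signal, and 2 of the 9 early factors were called in them, no larger a share than among all genes. All 10 germ cell markers were lower in Kit Wv/Wv than in wild-type ovaries of P0 (summed signal 2.12 to 9.5 against 44.2 to 78.1). Of the 9 factors, Wt1 and Tcf21 were called higher, where 30.6% of all genes were called. The member median was 0.274 and that of all genes 0.226, so all genes shifted alike at the median in this comparison. Of 10 fetal ovary supporting cell markers 5 were higher (64.5 to 73.7 against 33.6 to 39.3), as were 4 of 8 endothelial markers (11.6 to 13.2 against 7.35 to 7.93). Of 10 interstitial stroma markers 0 were higher and 1, Ptch1, was lower (64.3 to 72.1 against 52.9 to 82.7). The part of these cell types in the Wt1 and Tcf21 calls was not tested.

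Wt1 signals were 8.7, 8.2 and 9.64 in Kit Wv/Wv ovaries against 6.15, 6.7 and 5.9, without overlap (0.50 ± 0.14, adjusted p = 0.00656). With arrays centred on their medians the Wt1 difference was 0.23 and not called (0.395). Tcf21 signals were 2.94, 3.29 and 3.46 against 2.07, 1.13 and 1.93, also without overlap (0.96 ± 0.21, 0.000902). Without the array with residual oocyte markers, both stayed called (0.44 and 0.91, adjusted p = 0.037 and 0.00547). Emx2, at 7.33, 9.27 and 11.4, and Lhx9, at 1.15, 1.43 and 2.39, were not called against wild-type (0.48 and 0.27, 0.169 and 0.34).

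Set against each other, the germ cell poor Wnt4-null and Kit Wv/Wv ovaries, both Foxl2+/-, differed in 3 of the 9 factors (23.9% of all genes). Emx2 was lower in Wnt4-null ovaries by -1.64 ± 0.26 (adjusted p = 1.63e-05) and Lhx9 higher by 1.09 ± 0.21 (0.000247), neither with overlap. Wt1 was lower by -0.73 ± 0.14 (0.0002), a call that median centring lost (-0.46, 0.0613). Tcf21, raised in both against wild-type, was not called between them (0.52, interval 0.086 to 0.944, 0.0775). Germ cell markers remained higher in the Wnt4-null ovaries, 6 of 10 being called (9.55 to 19.4 against 2.12 to 9.5).

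**Figure D4:**
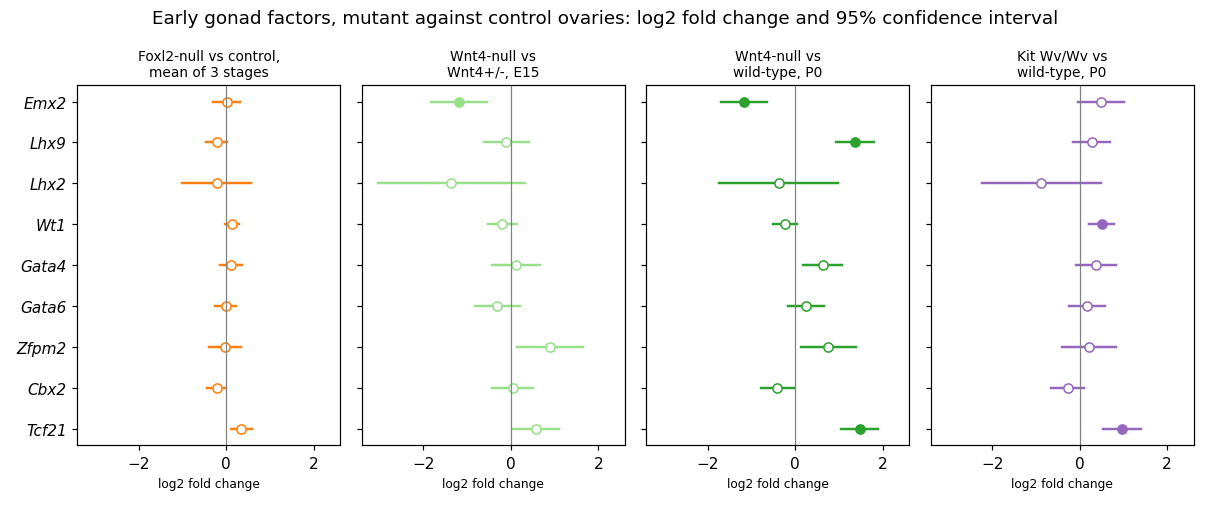
Log2 fold change of each early gonad factor in mutant against control ovaries, with 95% confidence intervals from the limma fit: Foxl2-null averaged over 3 ages, Wnt4-null at E15, Wnt4-null at P0 and Kit Wv/Wv at P0. Filled points passed an adjusted p of 0.05. No Foxl2 point is filled, Emx2 is filled at -1.18 and -1.16 in both Wnt4 panels, and Tcf21 is filled at 1.47 and 0.96 in the P0 panels.

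Removing Foxl2 as well added no called change. In Wnt4-/-Foxl2-/- ovaries Emx2 signals were 1.63, 2.34 and 2.6, all below the 3 Wnt4-null arrays, and the difference was -0.45 (interval -0.973 to 0.0799, adjusted p = 0.625). Lhx9 signals were 3.44, 3.48 and 3.4, and Tcf21 signals 3.94, 3.74 and 4.75, within or next to the Wnt4-null range. Gata6 alone had an unadjusted limma p under 0.05 against Wnt4-null ovaries, without a call (adjusted p = 0.458). Its signals were lower, at 2.21 to 2.9 against 3.43 to 3.93, and at 1.68 to 1.96 against 2.44 to 2.77 on its second probe set. Against Wnt4-null ovaries 0.924% of all genes were called, and against Kit Wv/Wv ovaries, for the Kit Wv/Wv Foxl2-/- group, 1.14%. In no background was the Foxl2 effect called different from that in ovaries with intact Wnt4 or Kit (0.379% and 0.022% of all genes). These effects are unlike: Foxl2-/- stood against Foxl2+/- in the mutant backgrounds and against wild-type in intact ovaries.

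The Wnt4-/-Foxl2-/- ovaries had more Emx2 and Wt1 than P0 testes. Their summed Sertoli marker signals were 30.3 to 34.2 against 36.8 to 61.3 in those testes, and their stroma marker signals 111 to 122 against 115 to 156. These were the 2 of 9 factors called, with 2.2% of all genes. Emx2 was higher by 2.14 ± 0.26 (adjusted p = 2.7e-06) and Wt1, at 4.77, 5.58 and 4.73 against 2.89, 3.86 and 3.01, by 0.63 ± 0.14 (0.00917). When the fit held only these 6 arrays, the calls were lost (0.056 and 0.103), and Wt1 was also lost without the first or the third P0 testis (0.0895 and 0.0516) or the second Wnt4-/-Foxl2-/- ovary (0.0639). Other factors lay apart without a call. Lhx9 (3.4 to 3.48 against 1.89 to 2.41, adjusted p = 0.0604) and Tcf21 (3.74 to 4.75 against 2.61 to 2.82) were higher than in testes. So were Gata4 (2.34 to 2.76 against 1.46 to 2.05) and Gata6 (2.21 to 2.9 against 1.16 to 2.02). Faint Lhx2 was lower, and Zfpm2 and Cbx2 overlapped.

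Over all 15 groups the range of a member's group means ran from 1.71-fold for Gata4 to 18.7-fold for Emx2, leaving out Lhx2, whose 18.1-fold range is set by the 0.01 added (its group means ran from 0.214 to 0.00236). Groups were put in order by the same values that the neighbour tests used, which makes neighbours close, so these steps are descriptions. In the order of Emx2 levels, 10 ovarian groups, all but those null for Wnt4, from Kit Wv/Wv (geometric mean 9.18) to wild-type P0 (6.58), showed no step with an unadjusted p under 0.05. The step from wild-type P0 down to the E15 Wnt4-null ovaries (3.52), groups of another age and strain mix, had an unadjusted limma p of 0.00365. The groups that followed were P0 Wnt4-null ovaries, E13 testes and Wnt4-/-Foxl2-/- ovaries (2.15), and P0 testis stood apart below them (0.481). In the order of Lhx9 levels no neighbours passed, from 4.28 in E13 Foxl2-null ovaries to 1.1 in P0 Foxl2-null ovaries. Control ovaries of E13 and P0, further apart in that order, differed (limma adjusted p = 2.43e-07). For Cbx2 the 3 E13 groups stood above all others, with a step below E13 testes (unadjusted p = 0.00284). For Gata6 E13 testes stood alone at the bottom (0.000195). Gata4 and Zfpm2 were called in 0 of 21 comparisons, while an unadjusted p under 0.05 was reached by Gata4 in 2 (Wnt4-null ovaries of P0, and Wnt4-/-Foxl2-/- ovaries against testes) and by Zfpm2 in 3 (those and Wnt4-null ovaries of E15).

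Among the members, the 15 group means correlated highest for Gata4 with Tcf21 (Pearson r = 0.852) and Emx2 with Wt1 (0.833), and lowest for Lhx2 with Gata4 (-0.713). These are descriptions over groups that share arrays, ages and genotypes. Among 10728 other genes above the median signal (10729 for Lhx2), Emx2 was closest to Pkig (r = 0.949), Sp5 (0.945) and Sphk2 (0.938). Lhx9 was closest to Ier3ip1 (0.839), Syp (0.832) and Tubg1 (0.82), and Lhx2 to Stra8 (0.874), Ccne1 (0.863) and Rhox9 (0.86). Wt1 was closest to Efna1, Mast3 and Crip3 (0.953 to 0.939), and Cbx2 to Polr2f, Dctd and Mcm2 (0.955 to 0.947). Gata4 was closest to P3h1 (0.909), Gata6 to Tmem203 (0.946), Zfpm2 to Ror2 (0.896) and Tcf21 to Slc25a24 (0.919).

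The other genes of genital ridge formation were divided. Of 13 measured, 2 were higher and 4 lower in E13 testis (median -0.0877), and 3 higher and 4 lower in P0 testis (median 0.235). The lower ones at both ages included Rspo1 (-2.21 and -2.47), which encodes an activator of WNT signalling, Numb, and Wnt4 itself (-1.75 at E13). For Wnt4 at P0, sex and the deletion those testes carry cannot be told apart. In Wnt4-null ovaries of P0, 2 were higher and 3 lower, the latter Map3k4, Rspo1 and the deleted Wnt4. Osr1, an odd-skipped related factor of the urogenital mesoderm, rose by 3.78 ± 0.39 (adjusted p = 1.05e-08) and Nr2f2, a nuclear receptor of gonadal stroma, by 0.90 (0.000455). Nr5a1 fell in ovaries from E13 to P0 (-0.80, 0.0345) and was not called between the sexes at either age (0.10 and 0.24, adjusted p = 0.924 and 0.557).

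Of 10 known gonadal targets of GATA4, WT1 or NR5A1 measured, 5 were higher and 2 lower in E13 testis, and 6 higher and 2 lower in P0 testis, where Gata4 was not called and Wt1 was lower. Star and Cyp11a1, of steroid synthesis, were among those higher at E13 (Star by 2.85, and Cyp11a1 with signals of 17.9 to 65.1 against 0.006 to 0.00746, too low for a measured fold), and Podxl, a cell surface sialomucin, among those lower (-1.88 and -2.50). In Wnt4-null ovaries of P0, 4 were higher (Star, Inha, Cyp11a1 and Dmrt1) and 0 lower.

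Of 14 family relatives of the members, 1 was higher and 3 lower in E13 testis, among them Gata2 (-3.27 ± 0.39, adjusted p = 1.31e-07) and Gata3, faint in both (0.00795 to 0.0393 against 0.0888 to 0.225, adjusted p = 0.00137). Lhx8, a LIM homeodomain factor of oocytes, was lower in P0 testis (0.0221 to 0.0509) and in Kit Wv/Wv ovaries (0.0156 to 0.523) than in wild-type ovaries (6.01 to 7.7). Of 10 Polycomb repressive complex 1 subunits, Cbx8 was lower in testis at E13 (-0.82, 0.0348), and 3 were lower at P0 (Cbx8, Ring1 and Phc1). None of the 10 was called in the Foxl2 average.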

How the data were processed

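RNA of single-mouse gonads was amplified in 1 linear round, labelled with biotin and hybridised to 43 Affymetrix MOE430 v.2 arrays. Intensities were deposited as the authors made them, with PLIER in R and scaling of every array to a common mean of 15970000. GCOS 1.3 is named in the submitters' processing notes, and a genome build is not given in the sources used here. The median probe set of an array lay at 0.1796 to 0.295 of the common mean. Depth has no meaning for arrays, and their number limits the precision.

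Of 45071 probe sets, 64 controls were left out. Of the 45007 kept, 34927 carried 1 gene symbol, 930 several and 9150 none. Intensities plus 1% of the common mean were taken to log2 and fitted with limma 3.58.1 (R 4.3.3) as 15 group means, with a mean-variance trend, 28 residual degrees of freedom, two-sided tests and Benjamini-Hochberg adjustment over all probe sets for each of 21 comparisons. A gene was read from its brightest probe set. On simulated data for E13 testis against ovary with all 45007 probe sets, 77 of 100 changes of 2 and 29 of 100 changes of 1 on the log2 scale were recovered, with 2 false among 108 calls. For Wnt4-null against control ovaries of E15, with 2 arrays each, 61 and 15 of 100 were recovered, with 4 false among 80 calls. The simulated noise was normal with the same spread in every group, and no other probe sets changed. In the data the median spread of a group ran from 0.205 to 0.423 and E13 testis against ovary called 8.14% of all genes. These rates therefore do not carry over to the real comparisons.

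All 9 members were named. Other genes named were the 3 with the most similar group means to each member, up to 4 per gene list by adjusted p, Nr5a1, Nr0b1, Wnt4, Foxl2 and Kit, and a few list genes chosen after their values were seen. The members and lists were chosen with earlier results of these data known. Array numbers in the titles were tested as a pairing; same-numbered arrays deviated together, with every correlation over 0.1, for E13 Foxl2-null and control ovaries only (0.132 to 0.158). Alternatives were other pseudocounts, median centring, quantile normalization, a filter on low probe sets, the mean of a gene's probe sets, the array number as a block, a fit on the compared arrays only, and each array left out. Replicates of 1 group were separate mice, and no arrays held identical values. Figures were drawn with matplotlib 3.10.9.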

Additional observations from a re-analysis of the deposited data

Results flagged for a closer look

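For 3 factors the change from E13 to P0 differed between testis and ovary by a limma interaction term. The P0 testes were from Wnt4-null mice, so age and Wnt4 genotype cannot be told apart in these terms, and Wnt4-null ovaries of P0 differed from wild-type ones in the same direction for Emx2 (-1.16) and Lhx9 (1.36). For Emx2 the testis change minus the ovary change was -2.13 (adjusted p = 0.000194): testis signals went from 2.39 to 2.71 at E13 to 0.267 to 1.15 at P0, while ovary signals went from 7.45 to 8.02 to 5.76 to 8.2. For Lhx9 it was 1.61 (0.000437), with ovary signals going from 3.83 to 4.44 to 0.902 to 1.68 and testis signals from 2.08 to 2.24 to 1.89 to 2.41. For faint Lhx2 it was 3.75 (0.0111), with ovary signals going from 0.153 to 0.273 to at most 0.0491, a size set by the pseudocount: it was 2.25 with 5% and 5.24, not called (adjusted p = 0.0836), with 0.1% of the common mean.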

How the results depend on the processing

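Of 35 called pairs of gene and comparison, all stayed called with a pseudocount of 5% of the common mean, 32 with 0.1%, 34 under quantile normalization, 30 under median centring and 31 when only the compared arrays were fitted. The filter on low probe sets left out Lhx2 with its 4 calls, and the other 31 stayed called. With the mean of probe sets 31 stayed called, 3 lost the call and 1, Gata6 in ovary P0 against E16, turned. With the array number as a replicate block all 35 stayed called, and 2 more passed, Gata6 in ovary P0 against E13 (adjusted p = 0.0355) and Gata4 in Wnt4-null ovaries of P0 (0.0415).

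Counts of called factors moved by more than 1.5 times as follows. The ovary E16 against E13 count of 2 became 1 with the 0.1% pseudocount and 1 with low probe sets left out. The P0 testis against ovary count of 5 became 3 under median centring and 3 with the mean of probe sets. Kit Wv/Wv became 1 under median centring, Wnt4-null E15 became 0 under quantile normalization, and Wnt4-/-Foxl2-/- against testis became 0 on its own arrays. With the mean of probe sets, ovary P0 against E16 became 1, the Foxl2 average 1, and Wnt4-null P0 and Wnt4-null against Kit Wv/Wv 5 each. Among smaller moves, E13 testis against ovary became 5 with the 0.1% pseudocount (without Lhx2) and 5 under median centring (without Tcf21), and the change by sex became 2 with the 0.1% pseudocount (without Lhx2). Wnt4-null against Kit Wv/Wv stayed at 3 under median centring, with Tcf21 (adjusted p = 0.0179) in place of Wt1. Leaving out each array gave 5 to 6 (E13 testis against ovary), 4 to 6 (P0), 1 to 2 (ovary E16 against E13, and P0 against E16), 3 to 4 (ovary P0 against E13), 2 to 3 (the change by sex), 3 to 6 (Wnt4-null P0), 0 (Wnt4-null E15), 1 to 3 (Wnt4-/-Foxl2-/- against testis) and 0 in the Foxl2 comparisons. Where an E15 group kept 1 array, it was assumed to vary like the other groups.

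Directions turned for Gata6 in Kit Wv/Wv ovaries (-0.112 under median centring, -0.0129 to 0.324 without single arrays), Lhx9 in testis with age (0.0593 under quantile normalization) and, with the mean of probe sets, Gata6 in ovary P0 against E16 (-0.351), P0 against E13 (-0.149) and Wnt4-null against Kit Wv/Wv (-0.546, and -0.0231 to 0.263 without single arrays). The Gata6 mean includes the probe set that did not follow the brightest one (r = 0.047). The cause of the other moves was not tested. Median centring shifted the median of all genes from 0.226 to -0.0468 in the Kit comparison and from 0.159 to -0.121 in ovary E16 against E13.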
